A study of Mus musculus with 18 samples.

Results

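LY6C myeloid-derived suppressor cells (MDSC) were set against whole bone marrow in total RNA, with 6 of the 18 RNA sequencing libraries of the series, chosen by their labels alone. The 3 libraries of the LY6C group, LY6C_T, carried replicate numbers 2, 3 and 6. The 3 libraries of the marrow group, BM_T, carried replicate numbers 1, 2 and 3. Values are listed in that order of replicates throughout. All samples were labelled wild type (WT) and C57BL/6. For LY6C_T, marrow was differentiated in culture for 5 days, sorted as CD11b high, Ly6G negative and Ly6C high, plated again and collected the next day after incubation with cycloheximide, which blocks translation elongation. For BM_T, cells were flushed from the femurs of 3 mice and red cells were lysed with ACK buffer. Both groups were lysed in a buffer with cycloheximide, and the lysates were centrifuged, so that the RNA came from cytoplasmic extracts. Libraries were stranded and made with random primers after ribosomal RNA removal with Ribo-Zero Plus, then read on a NextSeq 500. The labels name no tumour: LY6C_T cells were products of culture from normal marrow. Population, culture, sorting, replating and incubation with cycloheximide differed together between the groups and cannot be told apart. In bulk RNA, fewer cells of a type and less RNA per cell cannot be told apart either.

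Monocytic MDSC are relatives of inflammatory monocytes that build up in cancer and long-lasting inflammation. They restrain T cells by breaking down arginine, by making nitric oxide and reactive oxygen, and by showing inhibitory ligands. Bone marrow holds the makers of red cells, platelets, granulocytes, monocytes and B cells beside bone-forming and stromal cells. In the myeloid branch, colony-stimulating factors act with the transcription factors PU.1 and C/EBP beta, while GATA1 with its partner FOG1 and KLF1 direct the red cell branch, where globin and haem are made.

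Total counts were 21138649, 8684335 and 8559897 in LY6C_T, and 19776431, 26225431 and 25058990 in BM_T. Protein-coding genes, leaving out the mitochondrial genome and Lars2, held between 3236711 and 19740255 counts in LY6C_T and between 54944 and 76341 in BM_T. Levels are given as CPM, counts per 1000000 of the library size after TMM scaling, and 1 count was worth 0.00907 to 0.0554 CPM in LY6C_T and 1.64 to 2.12 CPM in BM_T. The scaled library sizes of BM_T were far below its total counts, so CPM is not a share of all counts. A level of 0 therefore allows up to 1.91 CPM in BM_T and up to 0.0197 CPM in LY6C_T, which are 3 counts over the group. Folds against a group at 0 are lower bounds from those limits. Without 1 BM_T library the limit was 2.74 to 3.14 CPM, and without LY6C_T replicate 2 it was 0.0713 CPM, so the bounds shrink in proportion. Intervals and limits cover counting error only. Most BM_T values below rest on fewer than 100 counts, and many on fewer than 10.

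With edgeR's quasi-likelihood test over 14181 genes, 2913 genes (20.5%) were higher in LY6C_T and 1050 (7.4%) were lower at an adjusted p under 0.05. Scaling moved this split: with libraries scaled to their protein-coding sum, 1542 of 13721 genes (11.2%) were higher and 1746 (12.7%) were lower. The share of calls that were higher was 73.5% with TMM and 46.9% with the protein-coding sum. Of the 2913 higher genes with TMM, 757 had 0 counts pooled over BM_T, 1332 had 1 to 9 and 824 had 10 or more. Over all tested genes the median log2 difference, LY6C_T minus BM_T, was 1.64 with TMM and 0.72 with the protein-coding sum. With genes at 0 in a group placed at their bound, the TMM median was -0.10. Each difference below is on the TMM scale and should be read against both TMM medians, 1.64 and -0.10. Each gene list is given with its counts under both scalings, those with the protein-coding sum in brackets. The bracketed counts run over the list members tested with that scaling, which need not be those tested with TMM. Where a list has 0 members in a direction, at most 2 of its members lay there at an unadjusted edgeR p under 0.05, and DESeq2 and limma each called at most 2 there. The p-values rest on a spread estimated over all 18 libraries, most of them outside this comparison, and with the 6 compared libraries alone 1263 genes were higher and 696 lower. The design text calls the samples independent biological replicates. The 18 libraries include polysomal RNA libraries that carry the same replicate numbers as the total RNA libraries. The reported fit took all 18 as independent, and whether same-numbered libraries share cells was not tested. Every LY6C_T library lay above every BM_T library for 48.5% of tested genes and below for 6.14%. Many genes named below were chosen by rules that require or favour such separation, so where groups are said not to overlap, this describes the values and supports nothing further.

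**Figure D1:**
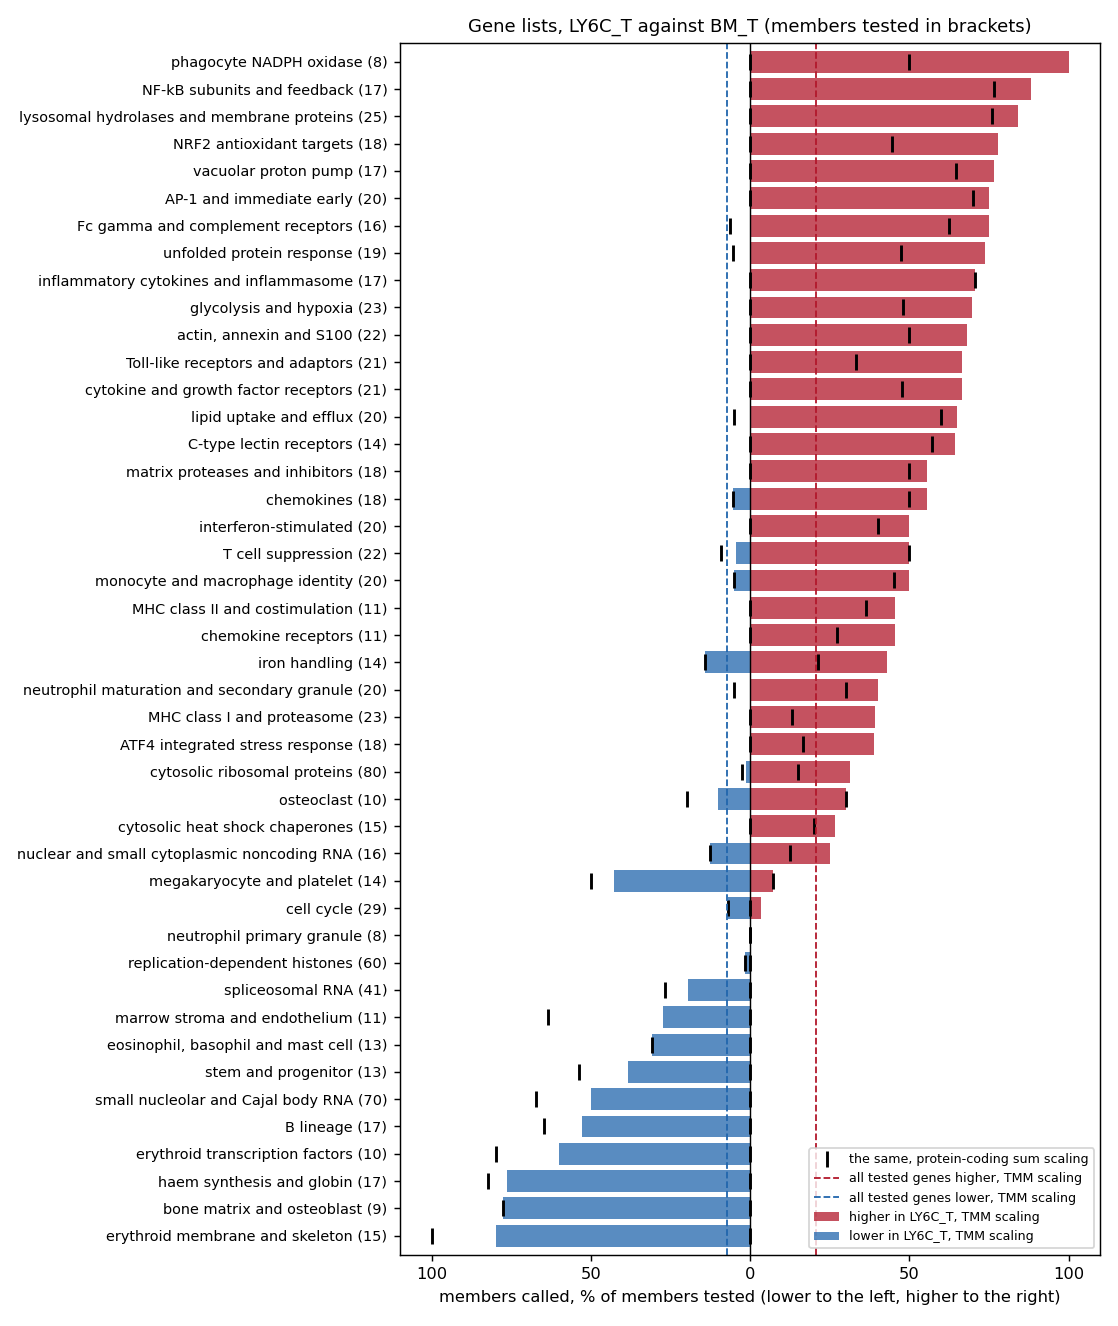
Share of the tested members of each gene list that was called higher (right of 0) or lower (left of 0) in LY6C_T than in BM_T, in percent of tested members. Bars are the calls with TMM scaling, and dashed lines the shares over all tested genes, 20.5% higher and 7.4% lower. Ticks are the calls with the protein-coding sum over all list members, divided by the number of members tested with TMM. Myeloid and lysosomal lists lie to the right, and erythroid, bone, B cell and small nucleolar RNA lists to the left.

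The sort markers were read first. Ly6c2, which encodes the Ly6C antigen of monocytes, stood at 76.3, 94.3 and 81.9 CPM in LY6C_T, against 2.12, 3.27 and 2.07 CPM in BM_T, where it had 1, 2 and 1 counts. The LY6C_T libraries lay far above every BM_T library, with a log2 difference of 5.05 ± 0.76 (adjusted p 6.41e-05). Ly6c1, its close paralog, had 0, 0.0554 and 1.16 CPM in LY6C_T and 0, 0 and 4.13 CPM in BM_T. It was thus near 0 in both groups and not called by edgeR (-1.75 ± 2.69, adjusted p 0.654), while limma called it lower at -5.71 (adjusted p 0.0323). Reads from these near-identical genes can be split between them by the counting. Ly6g, the marker gated out, was at 1.84, 4.16 and 4.16 CPM in LY6C_T and 0, 1.64 and 4.13 CPM in BM_T, and its difference of 0.80 ± 1.43 was not called (adjusted p 0.69). Itgam, which encodes CD11b, had 40.6, 33.6 and 54 CPM in LY6C_T and 0, 19.6 and 0 CPM in BM_T. All its BM_T counts came from replicate 2: the difference was 2.55 ± 0.67 (adjusted p 0.00747) with that library and 14.01 on the fitted log2 scale without it. The call on Itgam was lost with libraries thinned to marrow depth (1.23, adjusted p 0.196) and with a replicate block in the 6 compared libraries (1.93, adjusted p 0.221).

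The LY6C_T libraries were not alike in other cell types' markers. Neutrophil primary granule genes summed to 46.5, 378 and 14.4 CPM in LY6C_T and 127, 196 and 204 CPM in BM_T, so LY6C_T replicate 3 lay above marrow and the other 2 below it. Cell cycle genes summed to 474, 1093 and 239 CPM in LY6C_T and 834, 1003 and 1019 CPM in BM_T, again with LY6C_T replicate 3 highest of its group. Interferon-stimulated genes summed to 381, 398 and 1812 CPM in LY6C_T and 102, 128 and 157 CPM in BM_T, with LY6C_T replicate 6 set apart. The share of counts on protein-coding genes was 93.4%, 37.3% and 54.5% in LY6C_T, against 0.278%, 0.291% and 0.232% in BM_T.

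Many monocyte identity genes and, with TMM, most tested receptors for cytokines and growth factors were higher in LY6C_T. Fewer of these receptors were called higher with the protein-coding sum. Of 20 tested monocyte and macrophage identity genes, 10 were higher and 1 lower (9 and 1 with the protein-coding sum), beside 20.5% and 7.4% of all tested genes, and their median log2 difference was 3.30. Csf1r, the receptor for macrophage colony-stimulating factor, had 277, 122 and 328 CPM in LY6C_T, against 1, 3 and 2 counts or 2.12, 4.91 and 4.13 CPM in BM_T. Its lowest LY6C_T library was many times above the highest BM_T library (log2 difference 5.99 ± 0.56, adjusted p 2.59e-07). Mpeg1, which encodes the pore-forming perforin-2 of macrophages, had 386, 97.3 and 225 CPM in LY6C_T and 36, 8.18 and 10.3 CPM in BM_T. The groups did not overlap for Mpeg1 (log2 difference 3.73 ± 0.57, adjusted p 7.31e-05), although LY6C_T replicate 3 was the lowest of its group, as it was for Csf1r. The member that fell was Cd163, the haemoglobin scavenger receptor of tissue macrophages. Cd163 had 0.0272, 0 and 0.249 CPM in LY6C_T, against 12.7, 3.27 and 33.1 CPM in BM_T, a log2 difference of -7.67 ± 1.14 (adjusted p 5.82e-05). Spi1, which encodes PU.1, overlapped between groups at 55.5, 40.6 and 30.9 CPM in LY6C_T and 29.6, 45.8 and 59.9 CPM in BM_T, and was not called (-0.09 ± 0.31, adjusted p 0.819).

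Among cytokine and growth factor receptors, 14 of 21 tested genes were higher and 0 lower (10 and 0 with the protein-coding sum), with a median log2 difference of 2.30. Csf2rb (ENSMUSG00000071713, chromosome 15, 78325752 to 78353847, plus strand, GRCm38) encodes the common beta chain that signals for GM-CSF, interleukin 3 and interleukin 5. It had 396, 222 and 394 CPM in LY6C_T, against 3, 4 and 6 counts or 6.35, 6.55 and 12.4 CPM in BM_T. This was a wide gap in every library, with a log2 difference of 5.33 ± 0.44 (adjusted p 6e-08). Il10ra, the ligand-binding chain of the interleukin 10 receptor, had 56.7, 42.6 and 67.4 CPM in LY6C_T and 2.12, 0 and 6.2 CPM in BM_T (4.42 ± 0.53, adjusted p 5.71e-06). Tnfrsf1b, the second receptor for tumour necrosis factor, had 231, 72.3 and 171 CPM in LY6C_T and 2.12, 9.82 and 4.13 CPM in BM_T (4.81 ± 0.66, adjusted p 2.19e-05). The lowest LY6C_T value of each of these 3 receptors was in replicate 3.

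Receptors that sense microbes and dead cells were among the genes with no count at all in BM_T. Of 14 tested C-type lectin receptors, 9 were higher and 0 lower (8 and 0), with a median of 6.94, or 3.03 with genes at 0 set to their bound. Clec4n, which encodes the fungal mannan receptor Dectin-2, had 266, 85.2 and 223 CPM in LY6C_T and 0 counts in every BM_T library, so it was at least 99.99-fold higher (adjusted p 2.14e-06). Clec4d and Clec4e, which encode the partner receptors MCL and Mincle for mycobacterial glycolipid, had 60.8, 15.6 and 61.4 CPM and 39.5, 12.5 and 56.9 CPM in LY6C_T. Both were at 0 in BM_T, which makes them at least 24-fold and at least 19-fold higher (adjusted p 8.34e-05 and 0.00016). The 3 genes lie on chromosome 6, and all 3 were lowest in LY6C_T replicate 3.

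Toll-like receptors and their adaptors gave 14 higher and 0 lower of 21 tested (7 and 0), with a median of 5.43, or 2.12 with zeros at the bound. Tlr2, the receptor for bacterial lipoproteins, had 105, 52 and 65.2 CPM in LY6C_T and 0 counts in BM_T, at least 38.7-fold higher (adjusted p 8.66e-07). Tlr4, the receptor for lipopolysaccharide, had 37.2, 18.6 and 30.4 CPM in LY6C_T and 0 counts in BM_T, at least 15-fold higher (adjusted p 4.61e-05). Myd88, the adaptor shared by most Toll-like receptors, had 45.1, 60.2 and 39.1 CPM in LY6C_T, against 12.7, 6.55 and 14.5 CPM in BM_T. Its groups did not overlap, with a difference of 2.12 ± 0.39 (adjusted p 0.000371). Cd14, the lipopolysaccharide co-receptor, was highest in LY6C_T replicate 6, at 94.5, 60.2 and 254 CPM in LY6C_T and 0, 4.91 and 4.13 CPM in BM_T (5.43 ± 1.01, adjusted p 0.000728).

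Fc gamma receptors, complement and integrins followed: 12 of 16 tested were higher and 0 lower (10 and 1), with a median of 2.79. Itgax, which encodes the CD11c chain of complement receptor 4, had 77.9, 29.1 and 69 CPM in LY6C_T and 0 counts in BM_T, at least 30.6-fold higher (adjusted p 0.000105). Its partner Itgb2, the shared CD18 chain, was well measured in both groups, at 301, 269 and 315 CPM in LY6C_T and 33.9, 81.8 and 74.4 CPM in BM_T. The groups stood apart for Itgb2 by 2.21 ± 0.36 (adjusted p 0.000121). C3, the central complement protein, had 476, 343 and 424 CPM in LY6C_T and 29.6, 63.8 and 76.5 CPM in BM_T, with 14, 39 and 37 counts in BM_T. The difference was 2.87 ± 0.38 (adjusted p 1.78e-05), and every LY6C_T library exceeded every BM_T library.

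**Figure D2:**
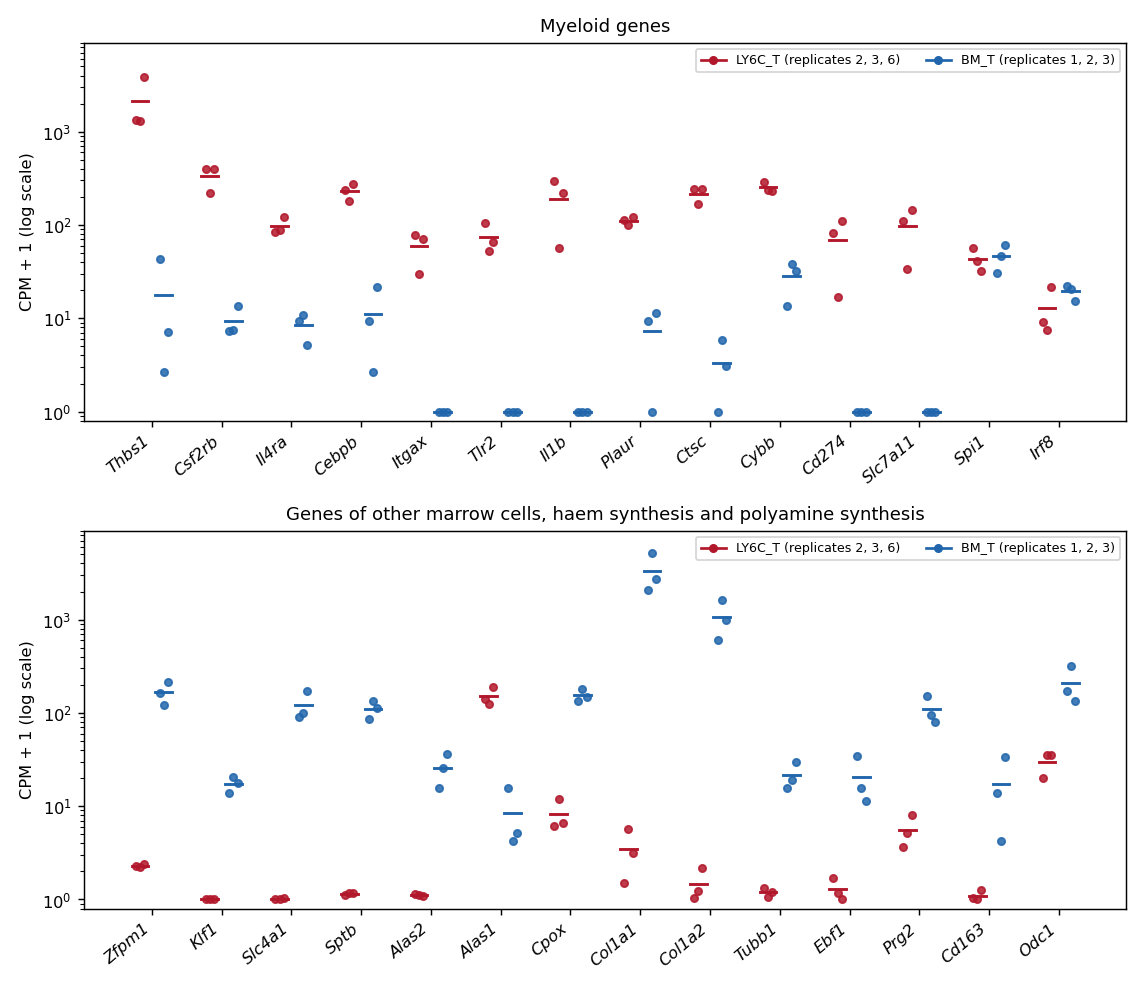
Level of 28 genes in each library, as CPM + 1 on a log axis, with LY6C_T left of BM_T for each gene and lines at the group means (n = 3 each). The upper panel holds myeloid genes, mostly higher in LY6C_T, and the lower panel erythroid, bone, platelet and other genes, mostly lower. Spi1 and Irf8 overlap between the groups, and Alas1 lies opposite to Alas2.

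Most tested inflammatory cytokine and inflammasome genes were higher in LY6C_T. The inflammatory list summed to 964, 374 and 924 CPM in LY6C_T, against 6.35, 8.18 and 22.7 CPM in BM_T. Of 17 tested members, 12 were higher and 0 lower under either scaling, with a median of 10.35, or 2.50 with zeros at the bound. Il1b, which encodes interleukin 1 beta, had 297, 55.8 and 218 CPM in LY6C_T and 0 counts in BM_T (adjusted p 1.22e-05). Nlrp3, the inflammasome sensor needed to process it, had 125, 100.5 and 241 CPM in LY6C_T and 1, 0 and 2 counts in BM_T, a ratio of 73.5 (95% counting interval 25.1 to 356) over the pooled counts (adjusted p 1.58e-06). LY6C_T replicate 6 was the highest library for Nlrp3 and replicate 2 for Il1b. Gsdmd, the pore protein that inflammasome caspases cut, had 27.2, 30.5 and 50.3 CPM in LY6C_T and 4.23, 6.55 and 8.26 CPM in BM_T (2.50 ± 0.48, adjusted p 0.000587). Osm, which encodes the interleukin 6 family cytokine oncostatin M, had 119.7, 57 and 64.5 CPM in LY6C_T and 0 counts in BM_T, at least 42-fold higher (adjusted p 6.87e-06).

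Most called chemokine genes rose and 1 fell. In all, 10 of 18 tested chemokine genes were higher and 1 lower (9 and 1), with a median of 11.25, or 1.95 with zeros at the bound. Cxcl2, which draws neutrophils, had 82.1, 31.8 and 117 CPM in LY6C_T and 0 counts in BM_T, at least 40.2-fold higher (adjusted p 3.59e-05). Ccl9, a chemokine of the macrophage inflammatory protein family in mice, had 55.7, 15.9 and 119.6 CPM in LY6C_T and 0 counts in BM_T, at least 31.9-fold higher (adjusted p 8.89e-05). Both were highest in LY6C_T replicate 6. The chemokine that fell was Cxcl12, made by marrow stroma to hold stem cells in place. Cxcl12 had 0, 0 and 3 counts in LY6C_T, against 10, 15 and 2 counts or 21.2, 24.6 and 4.13 CPM in BM_T, and the level in BM_T was 875 (95% counting interval 269 to 4507) times that in LY6C_T (adjusted p 1.58e-06). Among chemokine receptors, 5 of 11 tested were higher and 0 lower (3 and 0). Ccr1, which binds inflammatory CC chemokines, had 96.6, 34.9 and 74.2 CPM in LY6C_T and 0 counts in BM_T, at least 35.8-fold higher (adjusted p 0.000118).

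A matrix protein, Thbs1, led the genes that rose with counts in both groups. Thbs1 (ENSMUSG00000040152, chromosome 2, 118111876 to 118127133, plus strand) encodes thrombospondin 1, a secreted glycoprotein that activates latent TGF-beta and inhibits blood vessel growth. It had 1344, 1297 and 3829 CPM in LY6C_T, against 20, 1 and 3 counts or 42.3, 1.64 and 6.2 CPM in BM_T. LY6C_T replicate 6 was the highest, BM_T replicate 1 held most of the marrow counts, and the groups were far apart (log2 difference 7.06 ± 1.00, adjusted p 5.76e-05). Thbs1 is also a platelet granule gene and was the 1 member of the megakaryocyte list that rose. Of 18 tested matrix proteases and inhibitors, 10 were higher and 0 lower (9 and 0), with a median of 4.34, or 2.42 with zeros at the bound. Mmp12, the macrophage elastase, had 329.9, 89.6 and 260 CPM in LY6C_T and 0 counts in BM_T (adjusted p 6.61e-05). Mmp19, another matrix metalloproteinase, had 30.4, 20.8 and 43.6 CPM in LY6C_T and 0 counts in BM_T, at least 16.4-fold higher (adjusted p 4.71e-05). Plaur, the urokinase receptor that focuses plasmin at the cell surface, had 112, 99.5 and 119.6 CPM in LY6C_T and 8.47, 0 and 10.3 CPM in BM_T. Plaur was nearly level across LY6C_T libraries and did not overlap with BM_T (4.22 ± 0.52, adjusted p 7.83e-06). Cd44, the hyaluronan receptor, which is not in that list, had 167, 56.3 and 87.5 CPM in LY6C_T and 6.35, 6.55 and 6.2 CPM in BM_T (4.02 ± 0.52, adjusted p 1.3e-05). Adam8, a membrane metalloproteinase of leukocytes, had 92.3, 76.6 and 288 CPM in LY6C_T and 0, 8.18 and 12.4 CPM in BM_T (4.45 ± 0.82, adjusted p 0.000601).

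Lysosomal genes rose almost as a whole list: 21 of 25 were higher and 0 lower (19 and 0), with a median of 2.95. Ctsc (ENSMUSG00000030560, chromosome 7, 88278085 to 88310888, plus strand) encodes cathepsin C, the dipeptidase that activates granule serine proteases. It had 239, 166 and 244 CPM in LY6C_T, against 0, 3 and 1 counts or 0, 4.91 and 2.07 CPM in BM_T. The LY6C_T libraries were close to each other and far above BM_T (6.43 ± 0.60, adjusted p 2.63e-07). Ctsz, the carboxypeptidase cathepsin Z, had 130.5, 91.2 and 126 CPM in LY6C_T and 4.23, 3.27 and 14.5 CPM in BM_T (4.02 ± 0.53, adjusted p 1.7e-05). Lipa, the lysosomal acid lipase that frees cholesterol from its esters, had 89.4, 23.2 and 44.5 CPM in LY6C_T and 0 counts in BM_T, at least 27.4-fold higher (adjusted p 2.43e-05). The vacuolar proton pump that acidifies lysosomes had 13 of 17 tested subunits and partners higher and 0 lower (11 and 0), with a median of 2.72. Atp6v1b2, a catalytic-head subunit, had 136, 89.4 and 109 CPM in LY6C_T and 19.1, 13.1 and 24.8 CPM in BM_T (2.57 ± 0.34, adjusted p 1.54e-05). Atp6v0a1, a membrane-sector subunit, had 89.8, 79 and 94.8 CPM in LY6C_T and 19.1, 14.7 and 14.5 CPM in BM_T (2.46 ± 0.32, adjusted p 1.58e-05). Both subunits kept a narrow range within each group, with no overlap.

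All 8 tested parts of the phagocyte NADPH oxidase, which makes superoxide, were higher with TMM, and 4 with the protein-coding sum, where none was lower, with a median of 1.91. Cybb, the catalytic subunit gp91phox, had 289.5, 235 and 232 CPM in LY6C_T and 12.7, 37.6 and 31 CPM in BM_T (adjusted p 2.49e-06). Its membrane partner Cyba, p22phox, had 143, 148 and 81.2 CPM in LY6C_T and 10.6, 21.3 and 18.6 CPM in BM_T (2.86 ± 0.39, adjusted p 2.15e-05). The cytosolic organiser Ncf1, p47phox, had 123, 198 and 141 CPM in LY6C_T and 38.1, 16.4 and 20.7 CPM in BM_T (2.64 ± 0.35, adjusted p 1.54e-05). The groups did not overlap for these 3 subunits. The GTPase Rac2 was more variable, at 99.97, 60.8 and 38.1 CPM in LY6C_T and 2.12, 22.9 and 31 CPM in BM_T, and its difference of 1.81 ± 0.49 (adjusted p 0.00911) was not called with the protein-coding sum, with the 6 compared libraries alone or with libraries thinned to marrow depth (0.10, adjusted p 0.896).

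Promoter windows are shown for Ctsc, which was called with counts in both groups, for Mmp12, which had none in BM_T, and for the sort marker Ly6c2. Each window runs from 250 bases before to 50 after the annotated start, as given by RefSeq for GRCm38.p6, and is written 5′ to 3′ on the gene's strand. Capitals mark matches to GAGGAAGT, the core of the PU.1 motif, searched on both strands, so a match on the opposite strand reads ACTTCCTC. The windows are chr7:88277835-88278134, plus strand, for Ctsc, chr9:7344147-7344446, plus strand, for Mmp12, and chr15:75111922-75112221, minus strand, for Ly6c2.
Ctsc: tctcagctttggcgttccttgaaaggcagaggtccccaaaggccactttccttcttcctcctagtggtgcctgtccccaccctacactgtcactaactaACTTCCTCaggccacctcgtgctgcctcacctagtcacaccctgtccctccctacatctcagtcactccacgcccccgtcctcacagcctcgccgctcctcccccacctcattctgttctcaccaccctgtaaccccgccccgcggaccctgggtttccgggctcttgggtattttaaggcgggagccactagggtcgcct
Mmp12: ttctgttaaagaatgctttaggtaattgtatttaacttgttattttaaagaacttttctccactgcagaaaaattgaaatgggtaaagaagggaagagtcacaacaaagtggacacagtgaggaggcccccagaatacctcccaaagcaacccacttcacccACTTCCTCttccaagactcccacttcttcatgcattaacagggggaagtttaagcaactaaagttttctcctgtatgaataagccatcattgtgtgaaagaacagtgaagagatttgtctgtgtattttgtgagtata
Ly6c2: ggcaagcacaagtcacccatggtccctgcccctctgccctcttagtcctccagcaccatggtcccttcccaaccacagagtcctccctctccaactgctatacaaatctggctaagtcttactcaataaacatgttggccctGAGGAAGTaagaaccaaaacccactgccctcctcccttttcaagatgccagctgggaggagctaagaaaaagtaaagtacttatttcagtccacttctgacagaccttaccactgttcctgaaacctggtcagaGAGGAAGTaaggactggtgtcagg
The match lay 151 bases before the start in Ctsc and 88 before it in Mmp12. Ly6c2 held 2 matches, 108 bases before and 26 after the start. Of all 32851 windows from RefSeq, 3.2% held GAGGAAGT, and so did 3.55% of the windows of tested genes and 3.95% of those of genes called higher. The 3 windows were picked, after the search, from genes already known to be higher and because they hold the motif, which most windows of genes called higher do not. The windows of Il1b, Cdkn1a, Ier3 and Slc7a11, which like Mmp12 had 0 counts in BM_T, held none. A match says nothing of whether PU.1 bound there.

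Among lipid, iron and redox genes, most of those called rose in LY6C_T. Of 20 tested lipid uptake and efflux genes, 13 were higher and 0 lower (12 and 1), with a median of 3.71. Abcg1, which exports cholesterol to lipoproteins, had 53.9, 20.8 and 60.8 CPM in LY6C_T and 1, 1 and 0 counts in BM_T, a ratio of 40.01 (95% counting interval 11.1 to 330.4) over the pooled counts (adjusted p 4.85e-05). Lipg, the endothelial lipase, which is not in that list, had 41.2, 234 and 37.5 CPM in LY6C_T and 0 counts in BM_T, at least 33.1-fold higher (adjusted p 0.00055). Lipg was highest in LY6C_T replicate 3. Iron handling had 6 higher and 2 lower of 14 tested (3 and 2), with a median of 1.28. This was below the 1.64 of all tested genes. With zeros at the bound the order turned, at 1.28 against -0.10. Ftl1, the ferritin light chain that stores iron, had 413, 216 and 1135 CPM in LY6C_T and 50.8, 60.6 and 37.2 CPM in BM_T (3.56 ± 0.51, adjusted p 3.79e-05). Its partner Fth1, the heavy chain, had 377, 73.7 and 762 CPM in LY6C_T and 29.6, 42.6 and 43.4 CPM in BM_T (3.39 ± 0.63, adjusted p 0.000537). Both chains were highest in replicate 6 and lowest in replicate 3 of LY6C_T. Many ferritin pseudogenes exist, and reads from them may be split by the counting. Steap3, the ferrireductase of the red cell transferrin cycle, fell: it had 2.3, 1.94 and 1.41 CPM in LY6C_T and 6.35, 6.55 and 12.4 CPM in BM_T (-2.13 ± 0.49, adjusted p 0.00282).

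Targets of NRF2, the oxidative stress regulator, were higher for 14 of 18 tested genes and lower for 0 (8 and 0), with a median of 1.91. Srxn1, which repairs overoxidised peroxiredoxins, had 92.1, 23.2 and 64 CPM in LY6C_T and 0 counts in BM_T, at least 31.2-fold higher (adjusted p 2.93e-05). Its substrate Prdx1 had 311, 106 and 384 CPM in LY6C_T and 12.7, 16.4 and 10.3 CPM in BM_T (4.33 ± 0.73, adjusted p 0.000219). Slc7a11, the cystine importer that feeds glutathione synthesis, had 109.5, 32.7 and 144 CPM in LY6C_T and 0 counts in BM_T, at least 49.8-fold higher (adjusted p 0.000241). All 3 genes were lowest in LY6C_T replicate 3.

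Genes by which MDSC restrain T cells did not move as one. Of 22 tested, 11 were higher and 1 lower (11 and 2), with a median of 3.39. Arg1, the arginase that depletes arginine, had 6.08, 2.55 and 287 CPM in LY6C_T and 0 counts in BM_T. Nos2, the inducible nitric oxide synthase, had 0.626, 1.05 and 126 CPM in LY6C_T and 0 counts in BM_T. Nearly all of both signals came from LY6C_T replicate 6, and neither gene was called (adjusted p 0.293 and 0.447). With no filter on low counts, edgeR called both higher (adjusted p 9.45e-19 for Arg1 and 3.96e-12 for Nos2), and the cause was not tested. Cd274, which encodes the inhibitory ligand PD-L1 and was picked after its values were seen, had 81.8, 16 and 108 CPM in LY6C_T and 0 counts in BM_T, at least 35.9-fold higher (adjusted p 0.00103). Nt5e, the CD73 enzyme that turns AMP into inhibitory adenosine, had 20.1, 15.9 and 17.2 CPM in LY6C_T and 0 counts in BM_T, at least 9.27-fold higher (adjusted p 0.000376). Among regulators, Stat6, which carries the interleukin 4 signal, had 69.7, 53.2 and 73.5 CPM in LY6C_T and 6.35, 6.55 and 8.26 CPM in BM_T (3.22 ± 0.44, adjusted p 2.5e-05). Its receptor chain Il4ra had 83.5, 87.9 and 120.5 CPM in LY6C_T and 8.47, 9.82 and 4.13 CPM in BM_T, again without overlap (adjusted p 1.31e-06). Cebpb, the factor C/EBP beta of emergency myelopoiesis, had 234, 179.6 and 273 CPM in LY6C_T and 8.47, 1.64 and 20.7 CPM in BM_T (adjusted p 2.56e-06). Odc1, ornithine decarboxylase, which takes the product of arginase into polyamines and is also high in dividing cells, fell. Odc1 had 19.2, 34 and 34 CPM in LY6C_T, against 169, 318 and 134 CPM in BM_T, the reverse order of the called genes named in this group (-2.84 ± 0.41, adjusted p 3.7e-05).

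Most tested immediate early genes and NF-kB feedback genes were higher in LY6C_T, the group whose cells were incubated with cycloheximide before lysis. That incubation and replating cannot be told apart from the population here. Of 20 tested AP-1 and immediate early genes, 15 were higher and 0 lower (14 and 0), with a median of 3.82. Jun had 347, 133 and 131 CPM in LY6C_T and 14.8, 0 and 8.26 CPM in BM_T (4.81 ± 0.70, adjusted p 4.9e-05). Fos, its partner in AP-1, had 325, 116 and 123 CPM in LY6C_T and 16.9, 4.91 and 2.07 CPM in BM_T (4.60 ± 0.63, adjusted p 2.2e-05). Egr1, a zinc finger factor of the same early wave, had 428, 117 and 109 CPM in LY6C_T and 0 counts in BM_T, at least 114-fold higher (adjusted p 3.41e-05). These 3 factors were highest in LY6C_T replicate 2 and nearly equal in replicates 3 and 6. Klf6, a zinc finger factor induced in activated macrophages, had 200.5, 112 and 186 CPM in LY6C_T and 0, 8.18 and 14.5 CPM in BM_T (4.45 ± 0.54, adjusted p 6.11e-06). Zfp36, which encodes tristetraprolin, a destabiliser of cytokine mRNAs, had 214, 76.4 and 71.6 CPM in LY6C_T and 8.47, 4.91 and 4.13 CPM in BM_T (4.38 ± 0.56, adjusted p 1.19e-05). Ier3, an early response gene of NF-kB, had 163, 68.1 and 81.5 CPM in LY6C_T and 0 counts in BM_T, at least 54.4-fold higher (adjusted p 2.16e-06).

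NF-kB subunits and feedback genes gave 15 higher and 0 lower of 17 tested (13 and 0), with a median of 4.28. Birc3, an inhibitor of apoptosis induced by NF-kB, had 59.1, 23.4 and 37.7 CPM in LY6C_T and 0 counts in BM_T, at least 20.9-fold higher (adjusted p 1.48e-05). Tnfaip3, the A20 enzyme that shuts the pathway down, had 51.7, 26.9 and 43.7 CPM in LY6C_T and 0, 3.27 and 2.07 CPM in BM_T (4.42 ± 0.61, adjusted p 2.39e-05). Nfkbia, the inhibitor I kappa B alpha, had 125, 67.8 and 89.98 CPM in LY6C_T and 0, 6.55 and 18.6 CPM in BM_T (3.50 ± 0.54, adjusted p 7.56e-05). In each case the 3 LY6C_T libraries lay above all BM_T libraries.

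Interferon-stimulated genes varied among the LY6C_T libraries. Of 20 tested, 10 were higher and 0 lower (8 and 0), with a median of 3.22. Oas3, a sensor of double-stranded RNA that is not in that list, had 65.5, 61.4 and 159 CPM in LY6C_T and 4.23, 6.55 and 8.26 CPM in BM_T (3.90 ± 0.69, adjusted p 0.000307). Irf7, the amplifier of type I interferon, had 23, 22.5 and 240.1 CPM in LY6C_T and 0, 0 and 2 counts in BM_T (adjusted p 0.00937). The fitted log2 difference of Irf7 was 6.21 with all libraries, 4.08 without LY6C_T replicate 6 and 15.13 without BM_T replicate 3, the only marrow library with a count. Irf7 was not called with the 6 compared libraries alone (5.94, adjusted p 0.0584) or with limma (4.49, adjusted p 0.0721). Ifitm3, a membrane protein that blocks virus entry, had 52.9, 80.5 and 79.1 CPM in LY6C_T and 16.9, 3.27 and 6.2 CPM in BM_T (3.06 ± 0.70, adjusted p 0.00308).

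Antigen presentation was mixed. For MHC class II and costimulation 5 of 11 tested were higher and 0 lower (4 and 0), with a median of 3.08. Cd74, the invariant chain, had 209, 115 and 115 CPM in LY6C_T and 14.8, 9.82 and 6.2 CPM in BM_T (3.84 ± 0.64, adjusted p 0.000176). For MHC class I and the proteasome, 9 of 23 were higher and 0 lower (3 and 0), with a median of 1.42. This was below the 1.64 of all tested genes. With zeros at the bound the order turned, at 1.42 against -0.10.

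With TMM, most tested genes of the actin cortex, of glycolysis and of the secretory pathway were also higher. Fewer of each were called higher with the protein-coding sum. The actin, annexin and S100 list had 15 of 22 tested higher and 0 lower (11 and 0), with a median of 2.31. Actb, beta-actin, was one of the best measured genes in BM_T, with 187, 199 and 144 counts. It had 2564, 1721 and 1467 CPM in LY6C_T and 396, 326 and 298 CPM in BM_T, without overlap (2.50 ± 0.35, adjusted p 3.14e-05). Lcp1, the leukocyte actin bundler L-plastin, had 519, 289 and 349 CPM in LY6C_T and 42.3, 63.8 and 72.3 CPM in BM_T (2.69 ± 0.34, adjusted p 1.03e-05). Glycolysis and hypoxia genes gave 16 higher and 0 lower of 23 tested (11 and 0), with a median of 2.42. Slc2a1, the glucose transporter GLUT1, had 61.6, 44.9 and 140.5 CPM in LY6C_T and 2.12, 3.27 and 2.07 CPM in BM_T (5.02 ± 0.83, adjusted p 0.000188). Aldoa, the aldolase of glycolysis, had 269.7, 186 and 271 CPM in LY6C_T and 25.4, 36 and 28.9 CPM in BM_T (3.00 ± 0.41, adjusted p 2.53e-05). LY6C_T replicate 6 was the highest library for 20 of the 23 tested glycolysis and hypoxia genes.

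For the unfolded protein response of the endoplasmic reticulum, 14 of 19 tested were higher and 0 lower (9 and 1), with a median of 2.08. Edem1, which hands misfolded glycoproteins to degradation, had 109, 177 and 104 CPM in LY6C_T and 12.7, 24.6 and 8.26 CPM in BM_T (3.07 ± 0.38, adjusted p 7.03e-06). Hsp90b1, the chaperone GRP94, had 109, 185 and 131 CPM in LY6C_T and 27.5, 29.5 and 35.1 CPM in BM_T (2.21 ± 0.33, adjusted p 5.17e-05). Both were highest in LY6C_T replicate 3. Genes of the ATF4 stress response gave 7 of 18 tested higher and 0 lower (3 and 0) and a median of 1.82. Atf4 itself had 67.2, 60.9 and 52.3 CPM in LY6C_T and 19.1, 26.2 and 6.2 CPM in BM_T, and its difference of 1.78 ± 0.41 (adjusted p 0.00301) was not called with the protein-coding sum, with the 6 compared libraries alone or with libraries thinned to marrow depth. Cytosolic heat shock chaperones gave 4 higher and 0 lower of 15 tested (3 and 0), with a median of 1.57. Hspa4, a nucleotide exchange factor of HSP70, had 46.9, 60.3 and 45.6 CPM in LY6C_T and 6.35, 8.18 and 0 CPM in BM_T (3.34 ± 0.48, adjusted p 3.68e-05).

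Most tested red cell genes were lower in LY6C_T. Of 10 tested erythroid transcription factors, 0 were higher and 6 lower (0 and 8), with a median of -2.59. Zfpm1 (ENSMUSG00000049577, chromosome 8, 122282141 to 122337251, plus strand) encodes FOG1, the obligate partner of GATA1. It had 1.3, 1.22 and 1.37 CPM in LY6C_T, against 76, 74 and 103 counts or 161, 121 and 213 CPM in BM_T. Every LY6C_T library was near 1 CPM and no BM_T library was below 100 CPM (-6.99 ± 0.40, adjusted p 5.58e-10). Klf1, which switches on adult globin genes, had 0 counts in LY6C_T and 12.7, 19.6 and 16.5 CPM in BM_T, at least 828-fold lower (adjusted p 1.37e-08). Tal1, an early blood and red cell factor, had 2.99, 4.32 and 1.7 CPM in LY6C_T and 16.9, 22.9 and 31 CPM in BM_T (-2.98 ± 0.45, adjusted p 6.08e-05). Gata1 had 0.0635, 0 and 0.166 CPM in LY6C_T and 10.6, 1.64 and 14.5 CPM in BM_T (-6.77 ± 1.37, adjusted p 0.0011). Without LY6C_T replicate 2, the limit on a count of 0 rises as given above, so the bound on Klf1 falls by the same factor.

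Membrane and skeleton proteins of the red cell followed, with 0 higher and 12 lower of 15 tested (0 and 15) and a median of -9.71. Sptb, the beta chain of red cell spectrin, had 0.109, 0.166 and 0.166 CPM in LY6C_T and 84.7, 133 and 112 CPM in BM_T (adjusted p 9.89e-09). Dmtn, which bundles actin beneath the red cell membrane, had 2, 0 and 0 counts in LY6C_T and 20, 24 and 16 counts in BM_T, and BM_T was 2917 (95% counting interval 773 to 24640) times LY6C_T (adjusted p 2.11e-09). The groups stood apart in every library for both genes. Tspan33 (ENSMUSG00000001763, chromosome 6, 29694222 to 29718559, plus strand), a tetraspanin of erythroid precursors and B cells, had 0.145, 0.388 and 0.291 CPM in LY6C_T and 95.3, 218 and 126 CPM in BM_T (-9.23 ± 0.54, adjusted p 6.47e-10). The blood group genes Rhd and Kel had 0 counts in LY6C_T, and 11, 0 and 9 and 1, 10 and 3 counts in BM_T. They were at least 648-fold and at least 418-fold lower (adjusted p 0.000223 and 1.1e-05). Epor, the erythropoietin receptor, which was picked after its values were seen, had 0, 0 and 1 counts in LY6C_T and 5, 9 and 1 counts in BM_T. Its level in BM_T was 1458 (95% counting interval 224 to 61400) times that in LY6C_T (adjusted p 2.3e-06).

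Haem is made by a chain of enzymes, whose first step has a pair of isozymes, and these split. Among 17 tested haem and globin genes, a list without Alas1, 0 were higher and 13 lower (0 and 14), with a median of -4.14. Alas2 (ENSMUSG00000025270, chromosome X, 150547375 to 150570638, plus strand), the erythroid first enzyme, had 0.145, 0.111 and 0.0831 CPM in LY6C_T, against 7, 15 and 17 counts or 14.8, 24.6 and 35.1 CPM in BM_T. Alas1 (ENSMUSG00000032786, chromosome 9, 106233455 to 106248654, minus strand), the isozyme of other cells, had 140, 124 and 189.6 CPM in LY6C_T, against 7, 2 and 2 counts or 14.8, 3.27 and 4.13 CPM in BM_T. The isozymes lay in opposite order without overlap, at -7.63 ± 0.85 for Alas2 (adjusted p 2.7e-06) and 4.40 ± 0.51 for Alas1 (adjusted p 3.69e-06). Next in the path, Alad, which joins aminolevulinate into porphobilinogen, had 1.41, 1.83 and 1.62 CPM in LY6C_T and 38.1, 24.6 and 22.7 CPM in BM_T (-4.14 ± 0.39, adjusted p 2.89e-07). Cpox, which makes protoporphyrinogen in mitochondria, had 5.07, 11 and 5.53 CPM in LY6C_T and 133, 178 and 149 CPM in BM_T (-4.42 ± 0.45, adjusted p 8.27e-07). Of further enzymes, which were chosen after their values were seen, Ppox and Fech were called lower, at -2.10 ± 0.42 and -2.38 ± 0.39 (adjusted p 0.000859 and 0.000143). Fech, the last enzyme, which inserts iron, had 3.93, 3.16 and 3.28 CPM in LY6C_T and 25.4, 14.7 and 14.5 CPM in BM_T. Uros and Urod were not called at -1.53 ± 0.80 and -1.09 ± 0.60 (adjusted p 0.165 and 0.191), and their BM_T counts were 7, 0 and 0 and 5, 0 and 11. DESeq2 called both lower, Uros at -1.74 (adjusted p 0.0161) and Urod at -1.35 (adjusted p 0.0121). Urod was called lower with the protein-coding sum, and without BM_T replicate 2 Urod was called at -1.81 and Uros at -2.28. Uros was also called without BM_T replicate 3, at -2.18, and without BM_T replicate 1, the only marrow library with counts, it turned to 9.28 and was not called. Globin Hbb-bt, one of a pair of near-identical adult beta genes between which reads may be split, had 0.326, 0.776 and 0.291 CPM in LY6C_T and 25.4, 36 and 53.7 CPM in BM_T (-6.46 ± 0.75, adjusted p 4.2e-06), after lysis of red cells from the marrow.

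**Figure D3:**
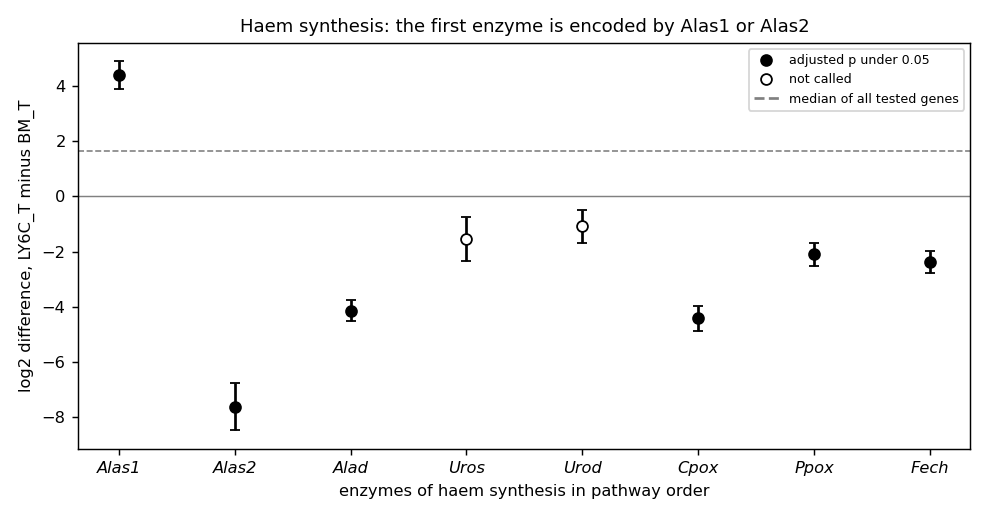
Log2 difference, LY6C_T minus BM_T, of 8 enzymes of haem synthesis in pathway order, with its standard error from the edgeR fit (n = 3 each). Filled points passed an adjusted p of 0.05 and open points, Uros and Urod, did not. The dashed line is the median of all tested genes, 1.64, and Alas1 is the enzyme above it.

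Promoter windows of the 2 isozymes and of 3 red cell surface genes, of which Epor was added after its values were seen, are shown because the isozymes moved in opposite directions and because the others, with at most 1 count in LY6C_T, were found in the search to hold the motif. The windows of Klf1, Add2, Slc38a5 and Col11a1, which also had 0 counts in LY6C_T, held none and are not shown. That of Btnl10, also at 0 in LY6C_T, held the motif and is not shown. The windows shown come from the same RefSeq table and are written in the same way. RefSeq places the starts of both isozymes inside the gene coordinates given above. Capitals mark matches to AGATAA, a form of the GATA motif, on either strand, so a match on the opposite strand reads TTATCT. The windows are chrX:150547167-150547466, plus strand, for Alas2, chr9:106247905-106248204, minus strand, for Alas1, chr9:21963527-21963826, minus strand, for Epor, chr4:134864286-134864585, plus strand, for Rhd, and chr6:41704276-41704575, minus strand, for Kel.
Alas2: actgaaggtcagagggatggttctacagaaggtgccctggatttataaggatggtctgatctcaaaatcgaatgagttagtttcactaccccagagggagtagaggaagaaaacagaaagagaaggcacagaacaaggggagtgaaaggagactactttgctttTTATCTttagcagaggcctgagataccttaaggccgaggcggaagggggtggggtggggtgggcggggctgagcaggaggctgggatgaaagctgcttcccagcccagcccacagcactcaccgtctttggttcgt
Alas1: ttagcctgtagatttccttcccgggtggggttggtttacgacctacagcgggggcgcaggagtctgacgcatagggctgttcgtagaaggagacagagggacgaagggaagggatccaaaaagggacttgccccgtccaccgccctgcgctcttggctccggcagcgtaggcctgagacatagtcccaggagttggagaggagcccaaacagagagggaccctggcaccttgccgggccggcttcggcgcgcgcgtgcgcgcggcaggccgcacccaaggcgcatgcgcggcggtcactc
Epor: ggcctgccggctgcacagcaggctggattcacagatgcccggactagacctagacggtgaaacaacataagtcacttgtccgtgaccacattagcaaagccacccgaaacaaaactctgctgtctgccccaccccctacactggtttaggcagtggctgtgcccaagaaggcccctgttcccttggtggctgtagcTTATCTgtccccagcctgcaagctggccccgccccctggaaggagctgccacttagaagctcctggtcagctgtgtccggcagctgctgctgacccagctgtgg
Rhd: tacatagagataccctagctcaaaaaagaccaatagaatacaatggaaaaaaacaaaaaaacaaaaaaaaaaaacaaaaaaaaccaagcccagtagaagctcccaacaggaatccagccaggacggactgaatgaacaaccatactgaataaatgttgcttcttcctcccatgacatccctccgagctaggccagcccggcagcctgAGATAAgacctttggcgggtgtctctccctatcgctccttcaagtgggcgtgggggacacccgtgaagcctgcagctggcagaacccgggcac
Kel: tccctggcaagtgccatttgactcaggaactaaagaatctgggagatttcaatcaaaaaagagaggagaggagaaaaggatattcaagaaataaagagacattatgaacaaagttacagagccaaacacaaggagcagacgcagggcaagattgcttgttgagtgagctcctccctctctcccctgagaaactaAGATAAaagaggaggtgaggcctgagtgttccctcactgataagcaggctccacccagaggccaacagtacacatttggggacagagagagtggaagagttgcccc
The match lay 86 bases before the start in Alas2, 54 before it in Epor, 43 in Rhd and 56 in Kel, and the Alas1 window held none. AGATAA was in 11.2% of all windows, in 6.59% of those of tested genes, in 6.36% of those of genes called higher and in 6.09% of those of genes called lower. Of 23 erythroid and haem genes called lower that had a window, 7 held it (30.4%). These shares are descriptions without a test, and a window without the letters says nothing of GATA1 elsewhere at the gene.

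Most tested genes of bone-forming cells were lower in LY6C_T by wide margins. Of 9 tested bone matrix and osteoblast genes, 0 were higher and 7 lower under either scaling, with a median of -7.77. The list held 17 genes, and the 8 that were not tested had 0 counts in every BM_T library. Col1a1 and Col1a2, the chains of type I collagen, had 0.49, 4.71 and 2.12 CPM and 0.0453, 0.222 and 1.16 CPM in LY6C_T, against 2051, 5133 and 2709 CPM and 603, 1629 and 984 CPM in BM_T. The lowest BM_T library was far above the highest LY6C_T library for both chains, and the differences were -10.45 ± 1.11 and -11.28 ± 1.71 (adjusted p 3.69e-06 and 0.000219). Sparc, which binds collagen and calcium in bone, had 0.0544, 0.0554 and 0.166 CPM in LY6C_T and 46.6, 63.8 and 12.4 CPM in BM_T (-8.98 ± 0.87, adjusted p 5.64e-07). BM_T replicate 2 was the highest for all 3 genes. Col5a2, a chain of the collagen that seeds type I fibrils, had 0.00907, 0 and 0.457 CPM in LY6C_T and 25.4, 27.8 and 26.9 CPM in BM_T (-7.77 ± 1.23, adjusted p 0.000167). Stroma and endothelium genes gave 0 higher and 3 lower of 11 tested (0 and 7), with a median of -2.57. Lepr, the leptin receptor that marks marrow stromal cells, had 1.1, 0.998 and 1.75 CPM in LY6C_T and 8.47, 9.82 and 10.3 CPM in BM_T (-2.90 ± 0.62, adjusted p 0.00147). Osteoclast genes, which share a monocyte origin, had 3 higher and 1 lower of 10 tested (3 and 2). Clcn7, the chloride exchanger of lysosomes and the osteoclast border, rose, at 36.4, 27.7 and 55 CPM in LY6C_T and 0, 3.27 and 10.3 CPM in BM_T (3.15 ± 0.66, adjusted p 0.00125).

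Most called platelet genes and all called B cell genes were lower too. Of 14 tested megakaryocyte and platelet genes, 1 was higher, Thbs1, and 6 were lower (1 and 7), with a median of -2.56. Tubb1, the platelet form of beta-tubulin, had 0.336, 0.0554 and 0.208 CPM in LY6C_T and 14.8, 18 and 28.9 CPM in BM_T (-6.43 ± 0.59, adjusted p 2.25e-07). Gp5, a subunit of the von Willebrand factor receptor, had 0.0453, 0 and 0.0831 CPM in LY6C_T and 27.5, 14.7 and 39.3 CPM in BM_T (-9.11 ± 0.89, adjusted p 5.14e-07). Both were under 1 CPM in every LY6C_T library. B lineage genes gave 0 higher and 9 lower of 17 tested (0 and 11), with a median of -3.58. Rag1, the recombinase of antigen receptor genes, had 0.39, 0.166 and 0 CPM in LY6C_T and 8.47, 11.5 and 6.2 CPM in BM_T (-5.30 ± 0.97, adjusted p 0.000401). Bach2, a repressor in B cell development, had 1.61, 0.388 and 0.457 CPM in LY6C_T and 23.3, 57.3 and 16.5 CPM in BM_T (-5.19 ± 0.95, adjusted p 0.000631). What was left of the B lineage list in LY6C_T was highest in replicate 2 for 15 of the 17 genes. Of T and NK cell genes, 17 were in the table and 4 were tested with TMM, of which 3 had 0 counts in BM_T. With the protein-coding sum 0 were higher and 3 lower, which includes genes not tested with TMM. With TMM 0 were higher and 1 lower. That 1 gene was Lck, the kinase of the T cell receptor, with 0.163, 0.0554 and 0.0416 CPM in LY6C_T and 4.23, 6.55 and 4.13 CPM in BM_T (-5.56 ± 0.98, adjusted p 0.000292).

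Granulocyte lists fell into 3 patterns. Eosinophil, basophil and mast cell genes gave 0 higher and 4 lower of 13 tested under either scaling, with a median of 0.16. The median was -1.50 with zeros at the bound and -0.66 with the protein-coding sum, so its sign was not stable. Prss34, a basophil protease, had 2.29, 0.721 and 2.95 CPM in LY6C_T and 33.9, 14.7 and 37.2 CPM in BM_T (-3.80 ± 0.93, adjusted p 0.00583). Alox15, the lipoxygenase of eosinophils, had 0.372, 1.11 and 0.707 CPM in LY6C_T and 27.5, 4.91 and 10.3 CPM in BM_T (-4.33 ± 0.81, adjusted p 0.000533). Neutrophil primary granule genes had 0 calls with edgeR in either direction among 8 tested, with a median of 0.77, while 1 was lower at an unadjusted p under 0.05 and by DESeq2 and limma. Genes of neutrophil maturation and secondary granules gave 8 higher and 0 lower of 20 tested (6 and 1), with a median of 1.39, in cells sorted as Ly6G negative. Lcn2, the siderophore binder lipocalin 2, had 207, 165 and 177 CPM in LY6C_T and 12.7, 18 and 16.5 CPM in BM_T (3.53 ± 0.56, adjusted p 0.000105). Hp, haptoglobin, had 111, 142 and 84.8 CPM in LY6C_T and 14.8, 21.3 and 12.4 CPM in BM_T (2.79 ± 0.35, adjusted p 9.79e-06). Chil3, the chitinase-like protein Ym1 of both neutrophils and alternatively activated macrophages, had 353, 934 and 231 CPM in LY6C_T and 33.9, 37.6 and 10.3 CPM in BM_T (4.20 ± 0.61, adjusted p 5.02e-05). Lcn2 was level across LY6C_T, whereas Chil3 was highest in replicate 3. The part of neutrophil precursors in these values was not tested.

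Stem and progenitor genes gave 0 higher and 5 lower of 13 tested (0 and 7), with a median of -2.08. Sox4, a factor of early lymphoid and myeloid progenitors, had 1.09, 1.39 and 2.99 CPM in LY6C_T and 31.8, 29.5 and 14.5 CPM in BM_T (-3.82 ± 0.82, adjusted p 0.00193). Cell cycle genes gave 1 higher and 2 lower of 29 tested (0 and 2), with a median of 0.10. Cdkn1a, which is not in that list and encodes the cell cycle inhibitor p21, had 182, 84.1 and 154 CPM in LY6C_T and 0 counts in BM_T, at least 73.3-fold higher (adjusted p 2.42e-06). Mki67, the proliferation marker Ki-67, had 59.3, 152 and 30.9 CPM in LY6C_T and 248, 509 and 429.8 CPM in BM_T, so that LY6C_T replicate 3 lay closest to marrow (adjusted p 0.00682). Replication-dependent histone genes gave 0 higher and 1 lower of 60 tested under TMM, with a median of 0.45.

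Of 13 mitochondrially encoded mRNAs, 7 were tested and all 7 were called lower in LY6C_T. So were 35 of 70 tested small nucleolar and Cajal body RNAs, in libraries that differed widely in ribosomal RNA. Mitochondrial rRNA took 1.66%, 30.6% and 24% of counts in LY6C_T, against 57.1%, 61.1% and 65.8% in BM_T. The part of rRNA removal and extraction in the levels of short and mitochondrial RNAs was not tested. Mir6236 (ENSMUSG00000098973, chromosome 9, 110281287 to 110281409, plus strand), an annotated miRNA locus, had 3.91, 105 and 149.5 CPM in LY6C_T, against 417100, 308900 and 302500 CPM in BM_T (-11.96 ± 1.41, adjusted p 4.48e-06). Its BM_T counts were 197036, 188709 and 146389, and every BM_T library lay far above every LY6C_T library. Those counts exceeded the counts of all protein-coding genes together in the same libraries, 54944, 76341 and 58224. Whether reads at this locus came from a miRNA transcript was not tested. Other nuclear and small cytoplasmic noncoding RNAs, listed apart, gave 4 higher and 2 lower of 16 tested (2 and 2), with a median of 0.93. The 7 tested mitochondrial mRNAs had a median of -6.29, and 6 others were not tested. In this list 4 genes had 0 counts over LY6C_T and 4 had 0 counts over BM_T. mt-Nd6, a complex I subunit encoded on the strand opposite to the other mRNAs, had 0.517, 6.15 and 8.73 CPM in LY6C_T and 2231, 4077 and 3035 CPM in BM_T (-9.26 ± 1.08, adjusted p 1.14e-05). mt-Co1, the catalytic subunit of cytochrome oxidase, had 163, 106 and 62.8 CPM in LY6C_T and 1499, 3161 and 1808 CPM in BM_T (-4.29 ± 0.58, adjusted p 2.1e-05). The groups did not overlap for either, and the difference was smaller for mt-Co1. mt-Nd6 meets mt-Nd5 end to end on the other strand, and no source used here says whether the counting used strand.

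Small nucleolar and Cajal body RNAs, which guide the modification of rRNA and snRNA, gave 0 higher and 35 lower of 70 tested (0 and 47), with a median of -3.34. Snora31, a guide for pseudouridylation, had 0.29, 0.665 and 0.748 CPM in LY6C_T and 40.2, 108 and 55.8 CPM in BM_T (-7.01 ± 0.55, adjusted p 3.38e-08). Spliceosomal RNAs gave 0 higher and 8 lower of 41 tested (0 and 11). Their median was 4.88, and -3.54 with zeros at the bound, so its sign rested on genes at 0. Rnu11, of the minor spliceosome, had 0.898, 0.61 and 0.748 CPM in LY6C_T and 33.9, 228 and 155 CPM in BM_T (-7.50 ± 0.72, adjusted p 5.7e-07). Many copies of these genes share sequence, and their reads may be split by the counting. Cytosolic ribosomal protein genes gave 25 higher and 1 lower of 80 tested (12 and 2), with a median of 1.12. This was below the 1.64 of all tested genes. With zeros at the bound the order turned, at 0.99 against -0.10. Rpl10, a protein of the large subunit, had 51.5, 51.9 and 33.5 CPM in LY6C_T and 6.35, 6.55 and 0 CPM in BM_T (3.37 ± 0.58, adjusted p 0.000219).

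The spread within LY6C_T was itself ordered by gene group. Over all tested genes, 32.1%, 33.7% and 34.2% were highest in LY6C_T replicates 2, 3 and 6. Replicate 3 was highest for 54 of 60 tested histone genes, 28 of 29 cell cycle genes, 64 of 80 ribosomal protein genes and 14 of 20 neutrophil maturation genes. Replicate 6 was highest for 19 of 20 interferon-stimulated genes, 20 of 23 glycolysis and hypoxia genes and 13 of 18 chemokine genes. Replicate 2 was highest for 14 of 20 immediate early genes. Summed levels followed: histone genes reached 841, 1880 and 249 CPM in LY6C_T and 896, 944 and 1091 CPM in BM_T, and neutrophil maturation genes 2194, 5109 and 1189 CPM in LY6C_T and 849, 836 and 841 CPM in BM_T. For histones and cell cycle genes, LY6C_T replicate 3 lay above BM_T and replicate 6 below it, so the group mean described no single library. These are descriptions of 3 libraries with no test.

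**Figure D4:**
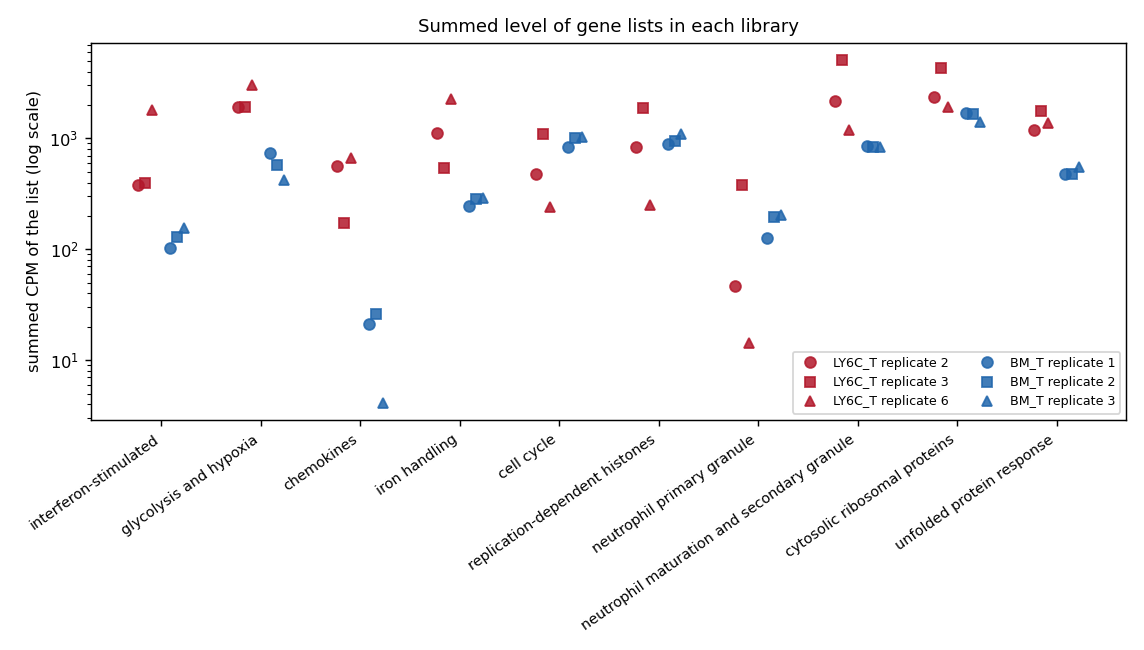
Summed CPM of 10 gene lists in each library on a log axis, LY6C_T left of BM_T, 1 point per library. Interferon-stimulated genes set LY6C_T replicate 6 apart, and histone, cell cycle and neutrophil primary granule genes set LY6C_T replicate 3 apart, with some LY6C_T libraries above and others below BM_T.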

How the data were processed

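The authors deposited 1 table of raw read counts per gene, whole numbers for all 18 libraries. Per the submitters' processing notes, FastQC, STAR 2.5.2a, DESeq and DESeq2 were named with GRCm38/mm10, and the counter and its strand setting are not stated there. Gene names came from GENCODE and promoter windows from RefSeq. Counts were fitted with edgeR 4.0.16 (R 4.3.3) over all 18 libraries and 6 group means, with TMM scaling, filterByExpr at a minimum count of 10 and the robust quasi-likelihood test with Benjamini-Hochberg adjustment. A call is an adjusted p under 0.05, and errors after ± are standard errors. Folds against 0 use 3 counts over the group, and ratios over 1 to 3 pooled counts carry exact 95% intervals. Alternatives used DESeq2 1.42.0, limma 3.58.1, other scalings and filters, thinning, a replicate block and fits without 1 library. Members and lists were chosen with earlier results of these data known. Genes named were sort markers and Arg1 and Nos2, the 15 rises and 15 falls ranked first without overlap between groups, the 8 at 0 in each group with the highest level in the other, and the 5 called members of each list with the lowest p. Others are said to be chosen after their values were seen, apart from uncalled list members of at least 10 CPM. Some genes the rule names are not reported here. Figures were drawn with matplotlib 3.10.9.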

Additional observations from a re-analysis of the deposited data

How the results depend on the processing

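Against 2913 genes higher and 1050 lower, scaling to the protein-coding sum gave 1542 and 1746, the 6 compared libraries alone 1263 and 696, and thinning to 54944 protein-coding counts 476 and 276 of 2223 tested. Lower calls were 1737 with no filter, 2234 with DESeq2 and 3087 with limma voom. Leaving out 1 library gave 2010 to 2583 higher and 899 to 1175 lower. With a replicate block, counts were 3126 and 1168 in all 18 libraries, and 438 and 296 in the 6 compared libraries. Deviations of same-numbered libraries from their group means had r 0.0034 and -0.0080 for numbers 2 and 3. Most tested genes had fewer than 10 counts over BM_T, so these values cannot decide whether the numbers mark pairs. The numbers were not taken as pairs, and the cause of the shifts between settings was not tested. No gene called in the reported fit was called the other way in any other scaling or tool. Over all calls, 1478 of the 2913 higher genes and 964 of the 1050 lower genes were called the same way with 2 other scalings, DESeq2 and limma. The named genes were mostly chosen from the reported fit by small p or separation, which favours keeping the call. Of 132 named genes that were tested, 124 were called, 120 of these the same way with 2 other scalings, DESeq2 and limma, and none lost its call without 1 library. Calls were lost for Atf4 and Rac2 with the protein-coding sum and for Fth1 and Irf7 with limma. The 6 compared libraries alone lost 3 of 111, Atf4, Irf7 and Rac2. Thinning lost 6 of 84, Atf4, Gsdmd, Hsp90b1, Itgam, Myd88 and Rac2. A replicate block in the 6 libraries lost 14 of 111, Actb, Alox15, Atf4, Clcn7, Fech, Fth1, Gsdmd, Itgam, Itgb2, Lepr, Mir6236, Myd88, Rac2 and Steap3. Calls were gained for Arg1 and Nos2 with no filter, Uros and Urod with DESeq2, Ly6c1 with limma and Irf8 with the block in all libraries. On the fold scale, 57 moved over 1.5 times without 1 library, so log2 differences are given. Signs turned for genes that were not called: without 1 library, Ly6c1 ranged between -6.74 and 7.18 (without BM_T replicate 3), Spi1 between -0.39 and 0.07 (0.03 without LY6C_T replicate 6) and Uros between -2.28 and 9.28 (without BM_T replicate 1), while Spi1 was 0.009 with limma, and a replicate block in the 6 libraries gave -0.22 for Ly6g and 8.35 for Uros. Marrow depth limits low genes: 4662 tested genes had 0 counts in BM_T and 10018 had fewer than 10.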

Other observations

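Genes outside the lists that the naming rule brought up were of several kinds. Cecr2, a chromatin remodelling factor, had 0.517, 0.0554 and 0 CPM in LY6C_T and 72, 99.8 and 49.6 CPM in BM_T (-8.11 ± 0.83, adjusted p 1.58e-06). Akap12, a scaffold for protein kinase A, had 0.272, 0.166 and 0.166 CPM in LY6C_T and 27.5, 52.4 and 33.1 CPM in BM_T (-7.42 ± 0.47, adjusted p 1.38e-09). Sowaha, an ankyrin repeat gene, had 0 counts in LY6C_T and 9, 9 and 16 counts in BM_T, at least 1102-fold lower (adjusted p 7.66e-07). Slc38a5, an amino acid transporter, had 0 counts in LY6C_T and 4, 6 and 6 counts in BM_T, at least 519-fold lower (adjusted p 4.37e-06). In the other direction, Plxna1, a semaphorin receptor, had 154, 50.2 and 163 CPM in LY6C_T and 8.47, 11.5 and 0 CPM in BM_T (4.15 ± 0.64, adjusted p 8.34e-05).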
